A study of Rattus norvegicus with 52 samples.

Results

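The metalloproteases and their inhibitors were followed across the lungs of rats given quaternary ammonium compounds, cationic surfactants used as disinfectants. The set was every gene symbol of the form Mmp, Adamts or Adam with a number, every Timp with a digit, and Reck, with Mmp12 left out by the rule. Of 34034 symbols in the count tables, 69 matched, and 53 of these had at least 10 counts in at least 4 libraries. The same 53 genes passed the expression filter of the test and are described below. They comprise 15 of 21 MMP genes, 19 of 19 ADAMTS genes, 14 of 24 ADAM genes and 5 of 5 inhibitor genes.

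Lung RNA from wild-type Sprague Dawley rats was sequenced from the 3' ends of transcripts after an instillation into the trachea. There were 13 groups of 4 rats, with 1 library per rat and 52 libraries in all. Control rats received DW, read here as distilled water, and the dosed rats received ABD or ADEB18 at 0.125, 0.25 or 0.5, BKC at 0.25, 0.5 or 1, or DDAC at 0.0625, 0.125 or 0.25. The labels state no unit of dose, no age or sex of the rats and no interval between dosing and sampling. The labels use short names only, of which BKC commonly stands for benzalkonium chloride and DDAC for didecyldimethylammonium chloride.

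Matrix metalloproteases (MMPs) are zinc enzymes that cut collagens, elastin and other matrix proteins, and most are made as inactive precursors. ADAM proteases sit in the cell membrane and shed growth factors, cytokines and receptors from the cell surface, while the secreted ADAMTS proteases cut proteoglycans, trim procollagens or act on microfibrils. The TIMP proteins bind the active site of these enzymes, and RECK is a membrane-anchored protein that inhibits several MMPs. In the lung this system takes part in alveolar development, in leukocyte entry and in matrix repair after injury. The functions named below are those described in human and mouse.

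Library depth lay between 8026084 and 13852249 counts, with 16932 to 19355 genes detected. Levels are in CPM, read counts scaled to TMM-normalised library sizes, given per library in replicate order or as mean ± SD (n = 4). A 3' tag is counted once per transcript, so CPM is close to a level per transcript, but capture differs between genes. The lung markers Sftpc, of alveolar type 2 cells, and Ager, of alveolar type 1 cells, were at 6440 to 13180 and 757.8 to 3313 CPM over the 52 libraries. Cldn5, of endothelium, was at 120.7 to 353.7 CPM and Col1a1, of fibroblasts, at 959 to 3515 CPM. Cardiac muscle markers varied widely between libraries of the same group, from a sum of 114 to 2893 CPM in Control and from 124 to 188 CPM in DDAC at 0.25, with Nppa at 0 in every library of the latter. Changes are log2 fold changes ± SE from edgeR's quasi-likelihood test over all 52 libraries. A change was called at a Benjamini-Hochberg adjusted p under 0.05 over the 17796 genes tested, and every adjusted p below is from that test unless another is named. All 12 comparisons of a dosed group with Control share the same 4 Control libraries.

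The promoters of Timp1, Adam17 and Reck are shown because Timp1 had the lowest adjusted p of the set against Control, and Adam17 and Reck were called at all 3 doses of DDAC. Each sequence is the 250 bases 5' of the annotated start from RefSeq (assembly GRCr8), written 5' to 3' on the strand of the gene. Capitals mark TGAGTAA in Timp1 and GGGCGG in Adam17 and Reck, letters of the kind bound by AP-1 and Sp1 factors, on either strand, so that CCGCCC is the second motif read from the other strand. Timp1 also holds the second motif, as CCGCCC, left in lower case.
Timp1 (chrX:3771123-3771372, minus strand): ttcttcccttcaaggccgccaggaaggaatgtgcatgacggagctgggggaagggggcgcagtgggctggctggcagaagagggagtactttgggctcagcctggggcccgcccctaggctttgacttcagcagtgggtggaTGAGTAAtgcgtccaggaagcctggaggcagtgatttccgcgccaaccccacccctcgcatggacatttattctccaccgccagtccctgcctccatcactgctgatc
Adam17 (chr6:46649345-46649594, minus strand): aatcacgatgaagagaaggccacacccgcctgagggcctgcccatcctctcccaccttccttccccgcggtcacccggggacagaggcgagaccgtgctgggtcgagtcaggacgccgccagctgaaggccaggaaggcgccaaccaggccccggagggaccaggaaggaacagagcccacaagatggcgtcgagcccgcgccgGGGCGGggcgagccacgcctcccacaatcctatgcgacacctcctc
Reck (chr5:62898467-62898716, plus strand): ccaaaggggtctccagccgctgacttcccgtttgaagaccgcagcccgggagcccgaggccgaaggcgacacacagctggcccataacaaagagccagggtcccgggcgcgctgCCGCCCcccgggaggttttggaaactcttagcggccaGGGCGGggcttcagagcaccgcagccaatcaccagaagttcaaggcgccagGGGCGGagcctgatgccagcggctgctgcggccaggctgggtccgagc
The match in Timp1 lies 108 to 102 bases upstream of the start and that in Adam17 46 to 41 bases upstream, while Reck has 3 matches. Promoters were found for 46 of the 69 members and 36 of the 53 tested. TGAGTAA is present in 2 of these 36, Timp1 and Adamts13, and in 2.38% of the 33469 rat promoters in the table. The related TGANTCA is in 3, Adam19, Mmp13 and Mmp7, against 6.34% of all promoters, and GGGCGG is in 24, Timp1, Adam17 and Reck among them, against 30.5%. A match is a description of letters in these windows and says nothing of binding.

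Inhibitor transcripts dominated the set. Timp2 averaged 1598 CPM over the 52 libraries, Timp3 1293 and Timp1 256, and these 3 held 67.5% of the CPM of the set. The proteases at the head of the order were Adam10 at 203 CPM, Mmp2 at 166 and Adamts15 at 115. In all, 6 members averaged over 100 CPM, 24 lay between 10 and 100, 15 between 1 and 10, and 8 tested members were at 1 CPM or less. The Adam10 and Mmp2 ranges overlapped, at 106 to 266 and 117 to 217 CPM, so their order was not fixed in each library. The 16 members under the count minimum were Mmp1, Mmp3, Mmp10, Mmp20, Mmp21, Mmp27, Adam2, Adam6, Adam7, Adam18, Adam21, Adam24, Adam25, Adam30, Adam32 and Adam34, and 4 of them (Adam21, Adam24, Adam34 and Mmp21) had no count in any library.

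**Figure D1:**
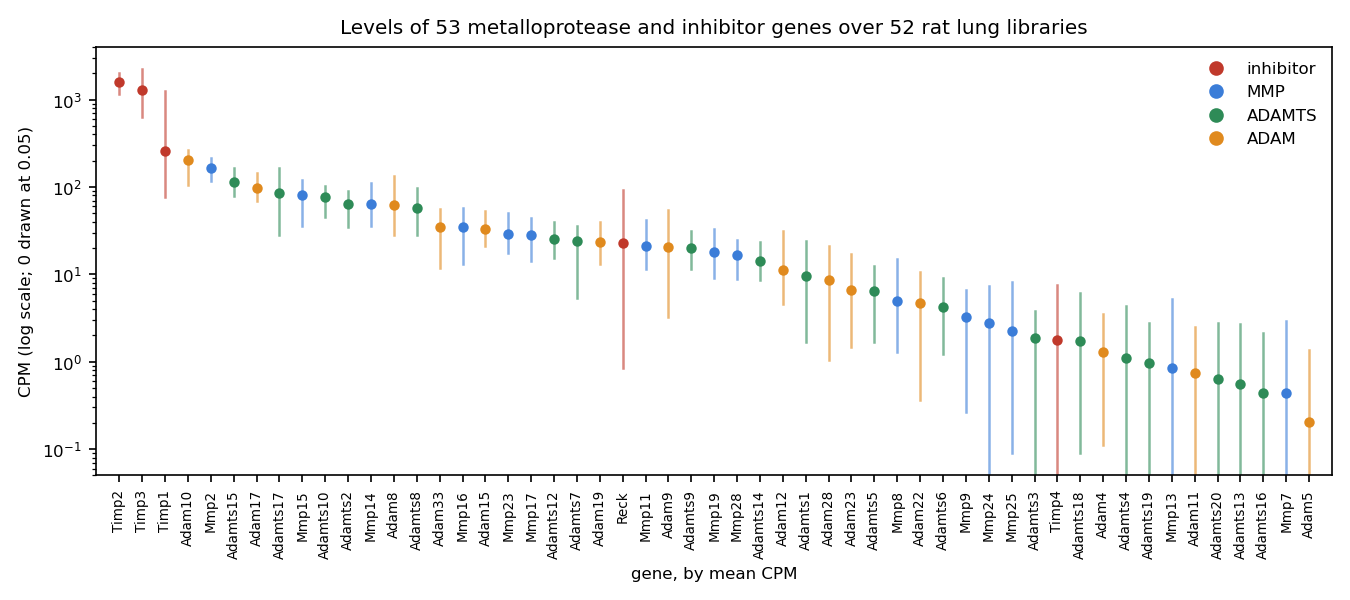
Mean CPM (points) and the lowest to highest of 52 libraries (lines) for the 53 members tested, on a log scale, coloured by family. Timp2 (1598 CPM) and Timp3 (1293 CPM) stand highest, and Timp1, Reck and Adam9 have the widest ranges among members above 20 CPM.

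Against Control, 18 members were called in at least 1 dosed group, in 37 calls. None of the 53 was called for ABD at any dose or for ADEB18 at 0.125 or 0.25, by edgeR or by DESeq2. At an unadjusted p under 0.05 there were 1, 5 and 4 members for ABD at 0.125, 0.25 and 0.5, and 6 and 8 for ADEB18 at 0.125 and 0.25. Few genes of any kind were called in those groups, at 0%, 0.0225% and 0.0169% of all genes tested for ABD and 0.0393% and 0.0393% for ADEB18. Here and below, shares of all genes are at the adjusted p, so counts at an unadjusted p cannot be set against them. For ADEB18 at 0.5, 2 members rose and 5 fell, which is 13.2% of the 53, where 4.66% of all genes were called, 2.56% higher and 2.10% lower. For BKC at 0.25, 1 member fell and none rose, against 0.208% of all genes, 0.0618% higher and 0.146% lower. For BKC at 0.5, 1 rose and 9 fell (18.9% of the 53), against 9.15% of all genes, 4.86% higher and 4.29% lower. For BKC at 1, 2 rose and 9 fell (20.8% of the 53), against 10.4%, 5.79% higher and 4.56% lower. For DDAC at 0.0625, 2 rose and 1 fell, against 2.32%, 0.927% higher and 1.39% lower. For DDAC at 0.125, 1 rose and 1 fell, against 1.48%, 0.584% higher and 0.893% lower. For DDAC at 0.25, 2 rose and 1 fell, against 2.47%, 1.56% higher and 0.910% lower.

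The members called were not the same in all groups. At the upper doses of BKC and ADEB18 the inhibitor Timp1 rose while secreted and membrane-bound proteases of the matrix fell, and the median log2 fold change of the 53 members was -0.20 for ADEB18 at 0.5, -0.28 for BKC at 0.5 and -0.27 for BKC at 1, beside 0.00, 0.00 and -0.01 over all genes. In the DDAC groups Reck and Adam9 were higher and Adam17 was lower at all 3 doses, though Adam9 at 0.125 did not pass the test. In bulk tissue, fewer cells of a type and less RNA per cell cannot be told apart.

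**Figure D2:**
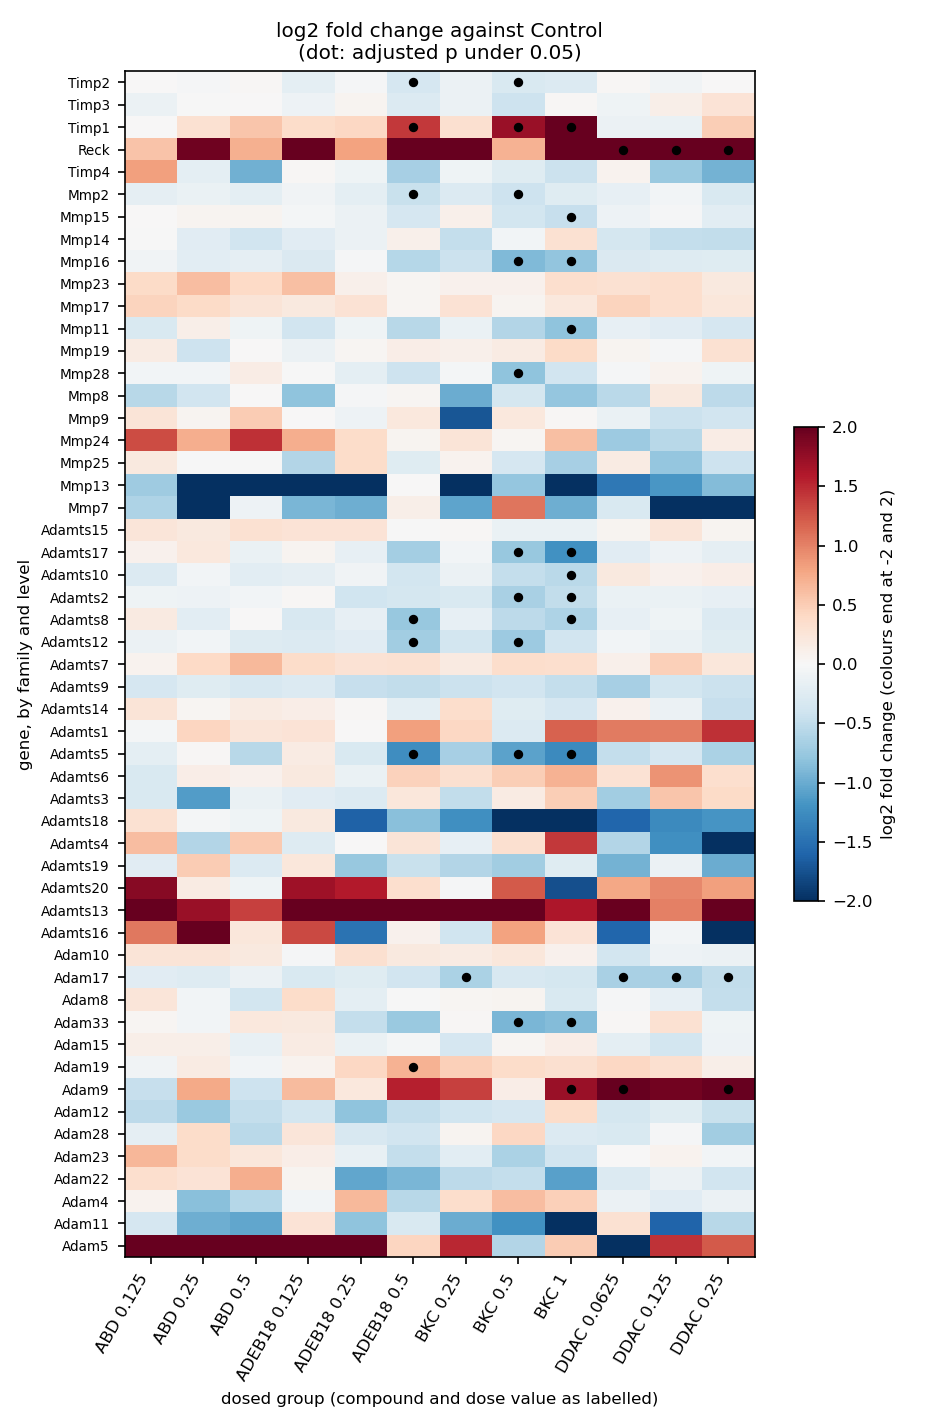
Log2 fold change against Control of each of the 53 members (rows, grouped by family and ordered by level) in the 12 dosed groups (columns), with a dot where the adjusted p was under 0.05. Dots gather under ADEB18 at 0.5 and BKC at 0.5 and 1, and in the Reck, Adam9 and Adam17 rows under DDAC, and the strong colours in the lowest rows of each family belong to genes near 1 CPM whose changes did not pass.

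Timp1, a secreted inhibitor of most MMPs that is known to be induced in injured tissue, showed the largest rise by adjusted p. Its level in the 4 Control libraries was 166, 146, 191 and 75.99 CPM. In BKC at 1 it was 391, 1031, 359 and 1265 CPM, in BKC at 0.5 463, 435, 792 and 224 CPM, and in ADEB18 at 0.5 300.5, 389, 309 and 537 CPM. Every library of these 3 groups lay above every Control library, and within BKC at 1 replicates 2 and 4 stood well above the other two. The log2 fold change was 2.40 ± 0.37 for BKC at 1 (5.26-fold, adjusted p = 5.5e-05), 1.73 ± 0.36 for BKC at 0.5 (3.31-fold, adjusted p = 0.00189) and 1.41 ± 0.36 for ADEB18 at 0.5 (2.65-fold, adjusted p = 0.0165). BKC at 0.25 gave 0.32 with a 95% interval from -0.40 to 1.03, and Timp1 rose by 2.08 ± 0.37 from BKC at 0.25 to BKC at 1 (adjusted p = 0.000867). The DDAC groups spanned 105 to 287 CPM, with log2 fold changes of -0.12, -0.14 and 0.49 and no call. The 2 BKC calls remained when any of the 8 libraries compared was left out, whereas the ADEB18 call was lost without Control replicate 4 or ADEB18 0.5 replicate 4, with adjusted p from 0.0168 to 0.0913 over the 8 refits.

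The rise of Timp1 came with higher markers of recruited monocytes and macrophages. The summed level of the 14 markers on that list was 1252 to 1599 CPM in Control, 2537 to 2652 in ADEB18 at 0.5, 2146 to 3898 in BKC at 0.5 and 2175 to 4220 in BKC at 1, with no marker at 0 in all libraries of a group. Of the 14, 4, 5 and 7 were called higher in those groups, among them Arg1, an arginase of activated macrophages (2.55 ± 0.46, 2.52 ± 0.46 and 2.78 ± 0.46), and Lgals3, a galectin (1.12 ± 0.28, 1.40 ± 0.28 and 1.44 ± 0.28). The part of these cells in the Timp1 change was not tested.

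Timp2, the inhibitor that also assists Mmp14 in activating Mmp2, fell by a small amount in the same groups. It was at 1793, 1930, 1580 and 1509 CPM in Control, at 1328, 1321, 1446 and 1305 CPM in ADEB18 at 0.5 and at 1299, 1481, 1345 and 1359 CPM in BKC at 0.5. No library of these dosed groups reached the lowest Control library. The change was -0.34 ± 0.10 (adjusted p = 0.0328) and -0.31 ± 0.10 (adjusted p = 0.0293), and for BKC at 1 it was -0.27 ± 0.10 with an adjusted p of 0.0561. Leaving out single libraries raised the adjusted p of both calls to 0.135 at most, and the call was lost in 5 of 8 refits for ADEB18 and 4 of 8 for BKC, including those without Control replicates 1 or 2.

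Timp3, which is held in the matrix and also inhibits Adam17 and aggrecanases, was not called in any comparison. Its Control level was 1221, 1195, 1081 and 1818 CPM, its lowest library was in BKC at 0.5 (625 CPM) and its highest in BKC at 1 (2216 CPM). The change ranged from -0.42 (95% interval -0.79 to -0.04, adjusted p = 0.162) for BKC at 0.5 to 0.28 (-0.09 to 0.66, adjusted p = 0.473) for DDAC at 0.25. Timp4 was low, from 0 to 7.65 CPM over the 52 libraries. Its intervals were more than 3 log2 units wide, so moderate changes were not detectable.

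**Figure D3:**
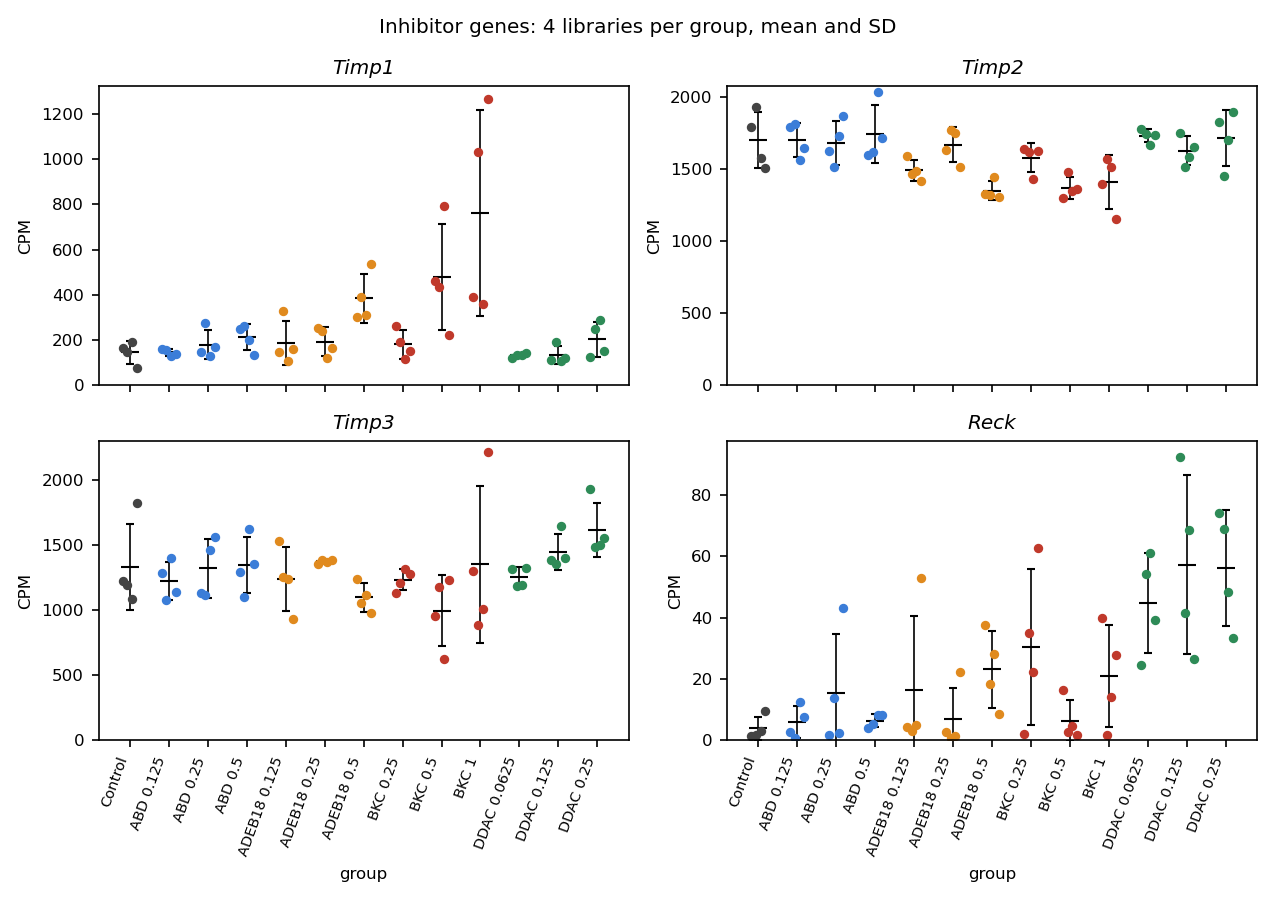
CPM of Timp1, Timp2, Timp3 and Reck in each library (points, 4 per group), with the group mean and SD (bars below 0 are not drawn). Timp1 reaches 1265 CPM in BKC at 1 against 75.99 to 191 CPM in Control, and Reck lies above the highest Control library in all 12 DDAC libraries and in 15 of the 36 libraries of the other dosed groups.

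Among the proteoglycan-cleaving ADAMTS enzymes, Adamts5 and Adamts8 fell and the others did not pass. Adamts5, the main aggrecanase of mouse cartilage, was at 10.8, 5.10, 11.2 and 8.08 CPM in Control, at 3.65, 2.56, 3.94 and 4.77 CPM in ADEB18 at 0.5, and at 4.62, 2.09, 5.28 and 2.54 CPM in BKC at 1. The ADEB18 libraries all lay below Control, whereas a BKC library at 5.28 CPM overlapped the lowest Control. The change was -1.24 ± 0.35 in ADEB18 at 0.5 (adjusted p = 0.0317), -1.07 ± 0.35 in BKC at 0.5 (adjusted p = 0.0434) and -1.28 ± 0.35 in BKC at 1 (adjusted p = 0.014). At a few CPM these calls were fragile: leaving out single libraries ended them in 6, 5 and 2 of 8 refits.

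Adamts8, an inhibitor of vessel growth in culture that is abundant in lung, was at 68.5, 66.5, 74.6 and 58.2 CPM in Control. It was at 45.2, 33.6, 37.4 and 41.9 CPM in ADEB18 at 0.5 and at 50.8, 28, 48.8 and 46.6 CPM in BKC at 1, all below the lowest Control library. The change was -0.76 ± 0.19 (adjusted p = 0.0135) and -0.62 ± 0.19 (adjusted p = 0.0254), and in BKC at 0.5 it was -0.53 ± 0.19 with an adjusted p of 0.0602. The ADEB18 call was lost without ADEB18 0.5 replicate 2 (adjusted p = 0.068), and the BKC call without Control replicate 3 or BKC 1 replicate 2, with an adjusted p of at most 0.145. The BKC call was also lost with the groups fitted alone (adjusted p = 0.072), and both were lost with the score of co-varying genes described below as a covariate (adjusted p = 0.0953 and 0.106). Adamts15, the most abundant of this group at 77.9 to 167 CPM, had changes from -0.14 to 0.30 and no call. Adamts1, at 1.67 to 24.01 CPM, had 1.46 ± 0.43 in DDAC at 0.25 with an adjusted p of 0.0516.

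Adamts2, which removes the amino-terminal propeptide of fibrillar procollagens, was called lower in both upper BKC groups. It was at 87.8, 78.2, 61.4 and 65.8 CPM in Control, at 49.02, 50.6, 34.9 and 51.8 CPM in BKC at 0.5 and at 51.2, 55.9, 53.1 and 47.1 CPM in BKC at 1. All 8 dosed libraries lay below the lowest Control. The change was -0.65 ± 0.16 (adjusted p = 0.00595) and -0.50 ± 0.16 (adjusted p = 0.0329). The first call was lost only without BKC 0.5 replicate 3 (adjusted p = 0.0654), and the second in 4 of 8 refits, those without Control replicate 1 or 2 or BKC 1 replicate 1 or 4. The related Adamts3 and Adamts14 were not called in any comparison.

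The steepest fall among the more abundant ADAMTS genes was that of Adamts17, an enzyme tied to microfibrils and to a human short-stature syndrome. It was at 85.8, 138, 81.1 and 84.4 CPM in Control, at 53.8, 66.2, 37.9 and 72.0 CPM in BKC at 0.5 and at 53.5, 45.2, 41.0 and 28 CPM in BKC at 1. The dosed libraries did not overlap with Control at either dose. The change was -0.76 ± 0.22 (adjusted p = 0.0253) at 0.5 and -1.21 ± 0.23 (2.32-fold lower, adjusted p = 0.000538) at 1, and from BKC at 0.25 to BKC at 1 it was -1.15 ± 0.23 (adjusted p = 0.00251). The calls at BKC 1 remained in all 8 refits that left out a library, with adjusted p of at most 0.00561 against Control and 0.0254 against BKC at 0.25. The call at 0.5 was lost in 3 of 8 refits, those without Control replicate 2 or BKC 0.5 replicate 1 or 3. In ADEB18 at 0.5 Adamts17 was at 54.1 to 71.1 CPM, with a change of -0.68 ± 0.22 and an adjusted p of 0.0678.

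Other ADAMTS calls were smaller or less stable. Adamts12, which has been described to cleave cartilage matrix proteins, fell by 0.69 on the log2 scale in ADEB18 at 0.5 (SE 0.18, adjusted p = 0.0213) and by 0.72 in BKC at 0.5 (SE 0.18, adjusted p = 0.00911). Its Control libraries were at 22.6 to 39.95 CPM and those groups at 16.1 to 22.1 and 15.4 to 24.4 CPM. The calls were lost in 4 and 2 of 8 refits. Adamts10, a microfibril-associated member, fell by 0.54 in BKC at 1 (SE 0.18, adjusted p = 0.0435), from 79.4 to 86.8 CPM in Control to 46.9 to 68.6 CPM, with the call lost in 6 of 8 refits. Adamts13, which cuts von Willebrand factor and is made mainly in liver, was at 0 to 2.73 CPM, and no change passed.

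Of the gelatinases, Mmp2, made largely by stromal cells, was called lower in ADEB18 at 0.5 and BKC at 0.5. It was at 215, 178, 157 and 215 CPM in Control, at 138, 158, 139 and 130.1 CPM in ADEB18 at 0.5 and at 155, 136, 130 and 149 CPM in BKC at 0.5. The changes were -0.44 ± 0.13 (adjusted p = 0.0453) and -0.42 ± 0.13 (adjusted p = 0.0341), and they were lost in 7 and 4 of 8 refits. Mmp9, the gelatinase of neutrophils and macrophages, stood at only 0.26 to 6.62 CPM. Its lowest group was BKC at 0.25, at 1.07, 1.79, 0.26 and 1.00 CPM, against 3.34, 2.74, 2.13 and 5.33 CPM in Control, a difference of -1.71 ± 0.50 with an adjusted p of 0.146. Mmp9 was higher in BKC at 1 than in BKC at 0.25 (1.74 ± 0.50, adjusted p = 0.0377), while BKC at 1 and Control differed by 0.03. That call was lost in 6 of 8 refits.

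The collagenase of neutrophils, Mmp8, was at 1.31 to 14.8 CPM with no call, and Mmp13, a collagenase of bone and stroma, was at 0 in 28 of 52 libraries and reached 5.17 CPM. Summed neutrophil markers were at 255 to 559 CPM in Control and 149 to 325 CPM in BKC at 1. No library of either group had a count of Elane or Fpr1, and none of BKC at 1 had a count of Mpo. Ngp, a neutrophil granule protein, fell from 3.61 ± 1.1 CPM in Control to 0.755 ± 0.67 CPM in BKC at 1 (-2.22 ± 0.69, adjusted p = 0.03). It was the only marker called there among the 7 neutrophil markers tested, and its level was low. The matrilysin Mmp7, an epithelial enzyme, was at 0 in 21 libraries, with a highest value of 2.94 CPM.

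Mmp11, called stromelysin-3 and made by fibroblasts around remodelling epithelium, fell in BKC at 1. Its level was 24.7, 27.6, 20.6 and 26.6 CPM in Control and 13.7, 11.9, 20.2 and 11.4 CPM in BKC at 1, where replicate 3 came close to the lowest Control. The change was -0.80 ± 0.20 (1.74-fold lower, adjusted p = 0.0078), and the call remained in all 8 refits, with an adjusted p of at most 0.0437. With BKC at 1 and Control fitted alone the adjusted p was 0.0538.

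Membrane-type MMPs, which act at the cell surface, split by gene. Mmp16 was at 39.7, 46.5, 43.95 and 42.7 CPM in Control, a narrow range, at 20.95, 24.9, 13.2 and 34.3 CPM in BKC at 0.5 and at 27.1, 16.9, 32.1 and 23.7 CPM in BKC at 1. All 8 BKC libraries were below Control, and the change was -0.89 ± 0.21 (adjusted p = 0.00406) and -0.79 ± 0.20 (adjusted p = 0.00897). Each call was lost in 1 of 8 refits, without BKC 0.5 replicate 3 (adjusted p = 0.0533) and without BKC 1 replicate 2 (adjusted p = 0.0592). Mmp15, the most abundant of these genes at 35.6 to 119 CPM, fell by 0.46 in BKC at 1 (SE 0.15, adjusted p = 0.0465), lost in 6 of 8 refits.

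Mmp14, the main activator of Mmp2, was not called against Control. It was at 61.3, 43.7, 54.2 and 42.8 CPM in BKC at 0.25 and at 67.6, 100.2, 71.1 and 112 CPM in BKC at 1, with no overlap, and it was called higher at the upper dose (0.80 ± 0.21, adjusted p = 0.0205). Control, at 55.8 to 89.2 CPM, lay between them, with a change of 0.31 ± 0.21 for BKC at 1 (adjusted p = 0.377). The call between doses was lost in 5 of 8 refits, those without BKC 0.25 replicates 2, 3 or 4 or BKC 1 replicates 2 or 4.

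Of the remaining MMPs, Mmp28, an MMP of epithelium and macrophages named epilysin, fell in BKC at 0.5. It was at 18.8, 20.8, 17.4 and 15.9 CPM in Control and at 8.80, 11.9, 10.4 and 10.7 CPM in BKC at 0.5, with no overlap. The change was -0.80 ± 0.19 (1.74-fold lower, adjusted p = 0.00547), and the call remained in all 8 refits, with an adjusted p of at most 0.0295. At the higher dose of BKC, 1, Mmp28 was at 10.3 to 16.1 CPM, with a change of -0.38 ± 0.19 and an adjusted p of 0.217. Mmp23, the most abundant of this group, was at 17.4 to 49.98 CPM and was not called in any comparison.

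**Figure D4:**
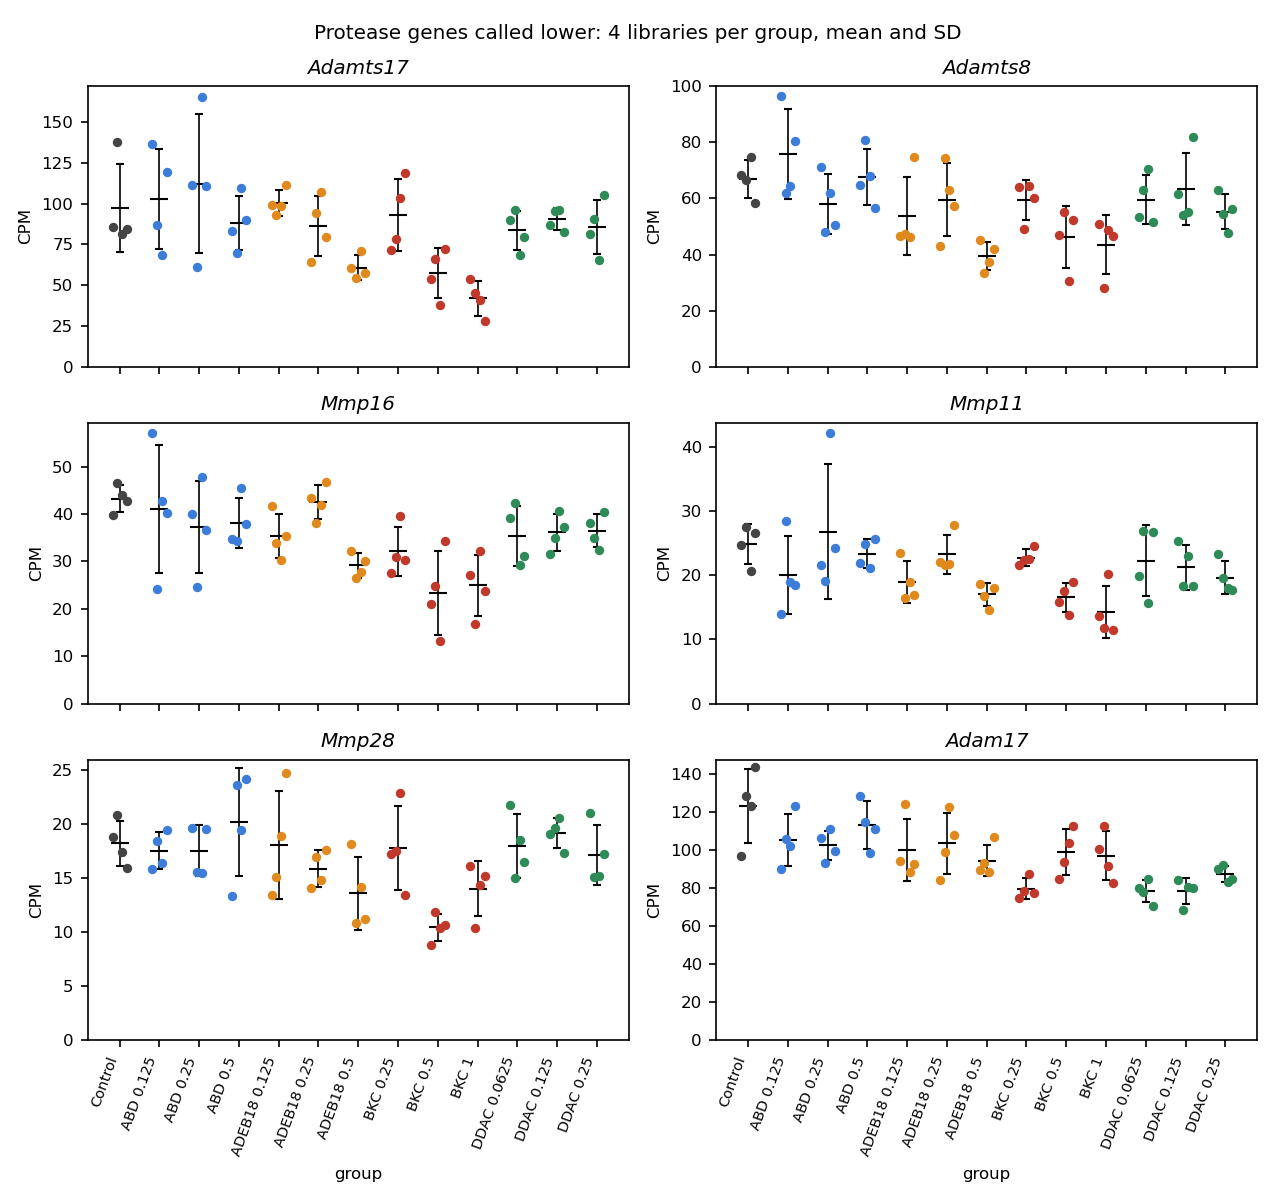
CPM of Adamts17, Adamts8, Mmp16, Mmp11, Mmp28 and Adam17 in each library (points, 4 per group) with the group mean and SD. Adamts17, Adamts8, Mmp16 and Mmp11 are lowest in the upper BKC groups and ADEB18 at 0.5, Mmp28 in BKC at 0.5, and Adam17 in BKC at 0.25 and the DDAC groups.

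In the groups with most falls, summed endothelial and alveolar type 1 markers lay below Control, while summed fibroblast markers overlapped with it. Summed fibroblast markers were at 5687 to 9476 CPM in Control, 5794 to 6412 in ADEB18 at 0.5, 4628 to 6364 in BKC at 0.5 and 4731 to 6647 in BKC at 1, and 2, 3 and 2 of the 10 were called lower. These sums were as low in groups with few or no called members, at 4957 to 6397 CPM in ABD at 0.5, 4583 to 6520 in ADEB18 at 0.25 and 4810 to 5960 in BKC at 0.25. In the other dosed groups the highest library was at 6595 to 12200 CPM. Summed endothelial markers were at 1960 to 2601, 1596 to 1770, 1195 to 1730 and 1394 to 1948 CPM in the same order, and 1, 5 and 1 of the 8 were called lower. Summed alveolar type 1 markers were at 5051 to 7613, 3596 to 4791, 2364 to 4835 and 2829 to 4408 CPM, with 1, 3 and 2 of the 7 called lower. The alveolar type 1 sums also lay below Control in ADEB18 at 0.125, at 4064 to 4939 CPM, where no member was called. No marker of these lists was at 0 in all libraries of any of these groups. The median log2 fold changes of the fibroblast list were -0.50, -0.51 and -0.49, and those of the endothelial list -0.50, -0.62 and -0.42. The part of these cells in the falls of the proteases was not tested.

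Adam17, the sheddase that releases TNF and ligands of the EGF receptor, was lower in all DDAC groups and in BKC at 0.25. It was at 97.2, 129, 123 and 144 CPM in Control. It was at 80.2, 77.9, 84.9 and 70.9 CPM in DDAC at 0.0625, at 84.3, 68.8, 80.7 and 80.1 CPM at 0.125, and at 89.9, 92.4, 83.1 and 84.9 CPM at 0.25. All 12 DDAC libraries lay below the lowest Control library. The change was -0.65 ± 0.12 (1.57-fold lower, adjusted p = 0.00163), -0.65 ± 0.12 (adjusted p = 0.00342) and -0.49 ± 0.12 (adjusted p = 0.0213), and no difference between DDAC at 0.25 and 0.0625 was called. In BKC at 0.25 it was at 75.1, 78.7, 87.7 and 77.3 CPM, also below every Control library, with a change of -0.63 ± 0.12 (adjusted p = 0.00858).

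Adam17 was not called at the higher BKC doses, where the changes were -0.32 ± 0.12 (adjusted p = 0.0854) and -0.35 ± 0.12 (adjusted p = 0.0539). Every dosed group had a mean below that of Control, the highest group mean being that of Control itself, at 123 CPM. The calls at DDAC 0.0625 and 0.125 remained in all 8 refits, with an adjusted p of at most 0.0176 and 0.0251. The call at DDAC 0.25 was lost without Control replicate 4 or DDAC 0.25 replicates 2 or 3, and that at BKC 0.25 without Control replicate 4 or BKC 0.25 replicate 4. Adam10, the related sheddase of Notch and cadherins, was at 168, 235, 172 and 185 CPM in Control and was not called in any comparison, with changes from -0.36 ± 0.14 in DDAC at 0.0625 (adjusted p = 0.187) to 0.32 ± 0.14 in ADEB18 at 0.25 (adjusted p = 0.721).

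Reck and Adam9, a widely expressed membrane protease, varied widely between libraries of the same group. Reck was at 1.25, 1.74, 3.05 and 9.499 CPM in Control. It was at 24.5, 54.2, 61.0 and 39.3 CPM in DDAC at 0.0625, at 92.5, 41.7, 68.4 and 26.6 CPM at 0.125 and at 74.1, 68.9, 48.4 and 33.2 CPM at 0.25. The changes were 3.5 ± 0.99 (adjusted p = 0.0445), 3.86 ± 1.00 (adjusted p = 0.0358) and 3.83 ± 1.00 (adjusted p = 0.0283). All 12 DDAC libraries exceeded every Control, but so did 15 of the 36 libraries of the other dosed groups, for example 43.0 CPM in ABD at 0.25, 52.8 CPM in ADEB18 at 0.125 and 62.5 CPM in BKC at 0.25, in groups whose lowest library was at 1.71, 2.98 and 2.06 CPM.

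Adam9 was at 9.84, 4.98, 7.03 and 14.3 CPM in Control, at 36.7, 31.7, 54.5 and 30.8 CPM in DDAC at 0.0625, at 49.6, 34.5, 38.6 and 15.7 CPM at 0.125 and at 51.1, 53.6, 38.3 and 20.2 CPM at 0.25. The change was 2.08 ± 0.55 (adjusted p = 0.0305), 1.93 ± 0.55 (adjusted p = 0.0575) and 2.17 ± 0.55 (adjusted p = 0.0264). In BKC at 1, at 38.4, 12.8, 23.4 and 45.9 CPM, it was 1.73 ± 0.55 (adjusted p = 0.0345), with replicate 2 inside the Control range. The calls of Reck in DDAC were lost in 8, 6 and 6 of 8 refits that left out a library, and those of Adam9 in 6 and 7 of 8 in DDAC and 5 of 8 in BKC at 1.

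Within groups, Reck and Adam9 rose and fell together, with a Pearson r of 0.90 and a Spearman rho of 0.90 between their residuals over the 52 libraries (permutation adjusted p = 0.0034 and 0.0046 over 1378 pairs of members, 0.88 without the 2 farthest libraries). They did so with a set of 511 genes, among them Atxn2l, Paip2, Btf3, Ctnna1 and Tgfbr2. That set was found over the 36 libraries outside DDAC and Control and without any member, as the genes correlated above 0.7 with the second principal component of the within-group residuals, which held 10.3% of their variance. The correlation of Adam9 with that component was 0.89 and that of Reck 0.87. The score of the set, its mean log2(CPM + 1), was 4.51 to 4.72 in Control, 5.24 to 5.35, 5.16 to 5.43 and 5.26 to 5.55 in DDAC at 0.0625, 0.125 and 0.25, 5.04 to 5.36 in ADEB18 at 0.5 and 4.73 to 5.40 in BKC at 1. The Control scores did not overlap with those of DDAC at any dose, of ADEB18 at 0.5 or of BKC at 1.

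With the score as a covariate, an alternative chosen after the data were seen, the Reck changes in DDAC were 0.55, 0.71 and 0.21 with adjusted p of 0.793, 0.76 and 0.957. Those of Adam9 were 0.52 in DDAC at 0.0625 (adjusted p = 0.645), 0.22 in DDAC at 0.25 (adjusted p = 0.924) and 0.35 in BKC at 1 (adjusted p = 0.591). The Adam17 changes were -0.56, -0.56 and -0.39 in DDAC (adjusted p = 0.0347, 0.0922 and 0.415) and -0.57 in BKC at 0.25 (adjusted p = 0.0612), so that the call at DDAC 0.0625 alone remained. Timp1 had 2.43 in BKC at 1 (adjusted p = 0.000296), 1.74 in BKC at 0.5 (adjusted p = 0.00253) and 1.44 in ADEB18 at 0.5 (adjusted p = 0.06), where the call ended. Of the members called in the fit without the score, 0 of 7 passed in ADEB18 at 0.5. Over all genes, the score took the calls in ADEB18 at 0.5 from 829 to 96. In DDAC at 0.0625, 0.125 and 0.25 they went from 412 to 54, 263 to 8 and 439 to 14, so the loss was not particular to this set. In BKC at 0.25, 0.5 and 1 they went from 37 to 9, 1629 to 1635 and 1842 to 1198. Scores of Control did not overlap with those of DDAC, ADEB18 at 0.5 or BKC at 1. In those groups this fit cannot separate the score from dosing, so no conclusion is drawn from a lost call. What the set of 511 genes stands for was not tested.

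**Figure D5:**
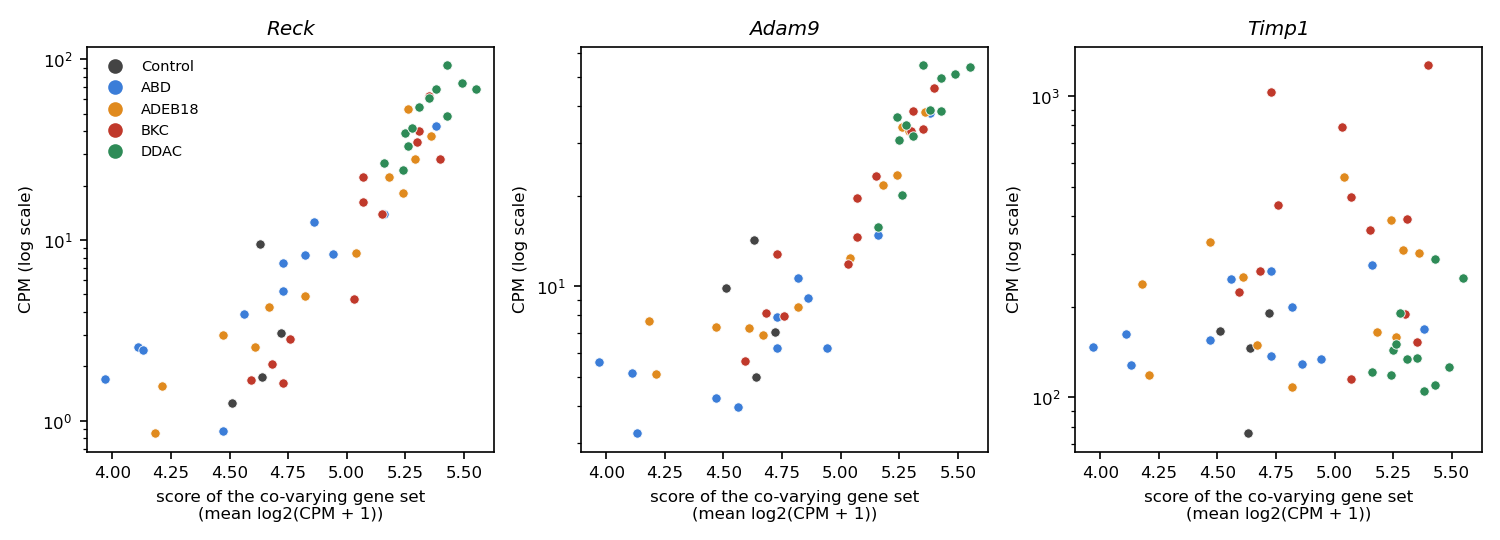
CPM (log scale) of Reck, Adam9 and Timp1 in each of the 52 libraries against the score of the 511 genes that varied together, coloured by compound. Reck and Adam9 climb with the score in every compound, the DDAC libraries lie at scores of 5.16 to 5.55 and Control at 4.51 to 4.72, and the highest Timp1 libraries lie at scores from 4.73 to 5.40.

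Of the other ADAM genes, Adam33, which is expressed in airway smooth muscle and fibroblasts and is linked to human asthma, fell in the upper BKC groups. It was at 43.6, 34.6, 25.5 and 49.1 CPM in Control, at 18.8, 17.3, 14 and 30.6 CPM in BKC at 0.5 and at 25.5, 13.7, 33.1 and 11.96 CPM in BKC at 1. The groups overlapped, and the changes of -0.92 ± 0.28 (adjusted p = 0.0293) and -0.86 ± 0.28 (adjusted p = 0.0389) were each lost in 5 of 8 refits. Summed smooth muscle markers were at 1187 to 3039 CPM in Control, 1244 to 2062 in BKC at 0.5 and 1657 to 2583 in BKC at 1, with none of the 6 called by edgeR in either group (2 and 1 at an unadjusted p under 0.05). Adam19, known for shedding neuregulin, rose in ADEB18 at 0.5, from 17.0, 16.9, 26.1 and 17.9 CPM to 34.9, 39.4, 22.5 and 29.7 CPM (0.70 ± 0.20, adjusted p = 0.0365), and this call was also lost in 5 of 8. The other 9 ADAM genes besides Adam9, Adam10, Adam17, Adam19 and Adam33, among them the leukocyte-associated Adam8 at 28.2 to 132 CPM, were not called in any comparison.

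Compounds were compared where they shared a dose value, in 12 pairs, although the unit is not stated. At 0.5, BKC and ADEB18 did not differ in any member by edgeR or DESeq2 (2 members at an unadjusted p under 0.05), where 0% of all genes were called. The difference BKC minus ADEB18 was 0.32 for Timp1 (95% interval -0.39 to 1.03), 0.02 for Timp2 (-0.17 to 0.21) and -0.08 for Adamts17 (-0.53 to 0.37), so differences of these sizes remain possible. BKC and ABD at 0.5 differed in 6 members, 1 higher and 5 lower in BKC, where 8.28% of all genes were called, 4.41% higher and 3.87% lower. Timp1 was higher in BKC by 1.18 ± 0.36 (adjusted p = 0.0308), and Adam33 (-1.13 ± 0.28, adjusted p = 0.00872), Adamts2 (-0.60 ± 0.16, adjusted p = 0.0127), Mmp16 (-0.71 ± 0.21, adjusted p = 0.0233), Mmp28 (-0.95 ± 0.19, adjusted p = 0.00174) and Timp2 (-0.34 ± 0.10, adjusted p = 0.0175) were lower. Of these, the Mmp28 call remained in all 8 refits that left out a library. ADEB18 and ABD at 0.5 differed in 5 members, 2 higher and 3 lower in ADEB18, against 3.51% of all genes, 1.88% higher and 1.62% lower. These were Adam19 (0.76 ± 0.20, adjusted p = 0.0273), Adam9 (1.98 ± 0.56, adjusted p = 0.0372), Adam33 (-0.96 ± 0.28, adjusted p = 0.0416), Adamts8 (-0.77 ± 0.19, adjusted p = 0.0154) and Timp2 (-0.37 ± 0.10, adjusted p = 0.0236), and each was lost in 3 to 7 of 8 refits. Recruited monocyte and macrophage markers were higher in BKC than in ABD at 0.5 for 5 of the 14 markers and in ADEB18 than in ABD for 2 of the 14. Endothelial markers were called lower for 6 of 8 in BKC and 3 of 8 in ADEB18, fibroblast markers for 2 and 1 of 10, and alveolar type 1 markers for 2 and 0 of 7. The part of these cells in the differences was not tested.

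At 0.25, no member differed between DDAC and BKC, the pair that differs by a benzyl group and a single long chain in BKC against a pair of decyl chains in DDAC (8 members at an unadjusted p under 0.05, none by DESeq2, 0.0337% of all genes called). Their difference was 0.18 for Timp1 (-0.54 to 0.89), 0.14 for Adam17 (-0.10 to 0.38), 0.89 for Reck (-0.87 to 2.64) and 1.32 for Mmp9 (0.30 to 2.33, adjusted p = 0.518). None was called between DDAC and ADEB18 (1.31% of all genes), DDAC and ABD (1.29%), BKC and ADEB18 (0%), BKC and ABD (0.129%) or ADEB18 and ABD (0.0169%) at 0.25, with 7, 11, 5, 5 and 4 members at an unadjusted p under 0.05 and 3, 1, 0, 1 and 0 called by DESeq2. At 0.125, DDAC and ABD differed in Adam9 (2.39 ± 0.57, adjusted p = 0.0174) and Adam17 (-0.42 ± 0.12, adjusted p = 0.0499), against 1.97% of all genes, and the Adam17 call was lost in all 8 refits. DDAC and ADEB18 (1.05% of all genes) and ADEB18 and ABD (0.0169%) at 0.125 differed in no member by edgeR, with 5 and 2 at an unadjusted p under 0.05 and 1 and 0 by DESeq2.

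Between the highest and lowest dose of a compound, BKC differed in 6 members, Timp1, Mmp14 and Mmp9 higher and Adamts17, Mmp11 and Mmp15 lower at 1 than at 0.25, against 3.99% of all genes, 2.72% higher and 1.27% lower. Mmp11 differed by -0.67 ± 0.20 (adjusted p = 0.0466, and 0.0561 with a replicate block) and Mmp15 by -0.57 ± 0.15 (adjusted p = 0.027), lost in 7 and 4 of 8 refits. ADEB18 differed in Adamts5 alone, -1.41 ± 0.35 (adjusted p = 0.0205), against 2.44% of all genes, and that call was lost in 4 of 8 refits. ABD (0.0169% of all genes) and DDAC (0.0225%) differed in no member by edgeR or DESeq2, with 2 and 3 at an unadjusted p under 0.05.

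Genes that activate, anchor or regulate these proteases were examined as a list. Of 37 such genes, 35 were tested, and 5 rose and 2 fell in BKC at 1, while 2 fell in BKC at 0.5 and 1 fell in each of ADEB18 at 0.5, BKC at 0.25 and the 3 DDAC groups, and none was called for ABD or the lower ADEB18 doses by edgeR (2, 3, 2, 3 and 5 at an unadjusted p under 0.05). That is 20% of the list in BKC at 1 beside 10.4% of all genes, 5.71% in BKC at 0.5 beside 9.15%, and 2.86% in ADEB18 at 0.5 beside 4.66%. The single call in each of BKC at 0.25 and the DDAC groups, also 2.86%, stands beside 0.208%, 2.32%, 1.48% and 2.47%. The gene called in all 7 of those groups was Sparc, a collagen-binding matricellular protein. It stood at 7040 ± 274 CPM in Control, 4560 ± 385 in BKC at 1 and 4900 ± 415 in DDAC at 0.0625, with no overlap with Control in any of the 7 groups. The Sparc change was -0.63 ± 0.10 in BKC at 1 (1.54-fold lower, adjusted p = 5.37e-05), -0.57 ± 0.09 in BKC at 0.5 and in ADEB18 at 0.5 (adjusted p = 0.000258 and 0.000531) and -0.41 ± 0.09 in BKC at 0.25 (adjusted p = 0.0456). In DDAC it was -0.52 ± 0.09, -0.43 ± 0.09 and -0.48 ± 0.09 at 0.0625, 0.125 and 0.25 (adjusted p = 0.00143, 0.0131 and 0.00413). Summed over the list, Control was at 8452 to 9114 CPM. The sums in ABD at 0.5 (7663 to 8173), ADEB18 at 0.125 (6844 to 8387) and ADEB18 at 0.25 (6871 to 7711) also lay below Control, without a call. Those of ABD at 0.125 and 0.25 overlapped with Control.

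The genes of this list that rose in BKC at 1 included a receptor of plasminogen activation and a matricellular protein. Plaur, the urokinase receptor, rose from 6.37 ± 1.69 to 21.4 ± 10.6 CPM (1.75 ± 0.52, adjusted p = 0.0244), and Thbs1, thrombospondin, from 150.1 ± 40.1 to 345 ± 218 CPM (1.2 ± 0.35, adjusted p = 0.02). Rhbdf2, which escorts Adam17 to the cell surface, rose by 0.47 ± 0.14 (adjusted p = 0.0202), and Lrp1, an endocytic receptor that clears proteases and their inhibitors, by 0.38 ± 0.11 (adjusted p = 0.0197). Plg, plasminogen, made mainly in liver, fell from 10.1 ± 2.51 to 3.08 ± 2.05 CPM (-1.71 ± 0.57, adjusted p = 0.0442). In BKC at 0.5, Adamtsl2, an ADAMTS-like protein of microfibrils without protease activity, fell from 51.6 ± 24.3 to 20.2 ± 5.12 CPM (-1.35 ± 0.36, adjusted p = 0.0113).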

How the data were processed

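The authors deposited a count table by gene symbol for each of 52 libraries, made from lung total RNA with the Lexogen QuantSeq kit, per the labels' protocols. Per the submitters' processing notes, the tools were fastp, STAR and HTSeq and the build mRatBN7.2, with no order or version. No strand setting is stated, so genes that overlap on opposite strands could share reads. The counts were used as deposited, and libraries were grouped by their labels.

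Counts were fitted in R 4.3.3 by edgeR 4.0.16 (with limma 3.58.1), after filterByExpr on the groups and TMM scaling, in a quasi-likelihood test with 1 term per group over 52 libraries (17796 genes, 39 residual degrees of freedom). The 28 comparisons, 12 against Control, 4 of highest against lowest dose and 12 at the same dose value, were tested two-sided; p-values were adjusted by Benjamini-Hochberg over every tested gene, with 95% intervals on 46.3 degrees of freedom. The fit was also run on simulated counts in which genes varied independently and only BKC at 1 held changes. That simulation leaves out variation shared between genes, so it does not cover this feature of the data. Alternatives were DESeq2 1.42.0 (its size factors, and its Wald test), other filters, a replicate block, fits of 2 groups alone, each library left out in turn, and the set score. The labels do not say that libraries of the same number share anything, and the mean residual correlation of same-numbered libraries was 0.00618, with 79 of 312 pairs over 0.1, so the numbers were not used as pairs.

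The members, lists and tests were chosen with earlier results of these data known. Named are the members called in any comparison, the Timp genes, Reck, Adam10, Adam17 and the most abundant member of each role, with other members by number or level. Of the other lists, up to 6 called genes per comparison are named. A called gene of the regulator list is not reported here. Precision is limited by 4 rats per group and, below a few CPM, by counting error. For correlations between members, libraries were permuted within their groups 100000 times.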

Additional observations from a re-analysis of the deposited data

Results flagged for a closer look

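Of 55 combinations of a called member and a group examined for a library far from the other 3, 4 stood out by Dixon's criterion at the 95% level, where chance flags about 1 in 20 groups. Adam19 was at 26.1 CPM in Control replicate 3, against 16.9 to 17.9 CPM in the other Control libraries. Adamts17 was at 138 CPM in Control replicate 2, against 81.1 to 85.8 CPM in the others. Timp2 was at 1446 CPM in ADEB18 0.5 replicate 3, against 1305 to 1328 CPM, and Adamts2 at 34.9 CPM in BKC 0.5 replicate 3, against 49.02 to 51.8 CPM.

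Differences between compounds at the same dose value passed the test of the difference itself for 13 combinations of gene and pair. For BKC against ABD at 0.5 the log2 differences were -1.13 for Adam33, -0.60 for Adamts2, -0.71 for Mmp16, -0.95 for Mmp28, 1.18 for Timp1 and -0.34 for Timp2. For ADEB18 against ABD at 0.5 they were 0.76 for Adam19, -0.96 for Adam33, 1.98 for Adam9, -0.77 for Adamts8 and -0.37 for Timp2. For DDAC against ABD at 0.125 they were -0.42 for Adam17 and 2.39 for Adam9. With the score of the 511 genes as a covariate the Adam9 differences were 0.86 (adjusted p = 0.172) and 0.59 (adjusted p = 0.792).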

How the results depend on the processing

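Of the 57 calls of single members, 57 were kept with DESeq2 size factors, with a filter of 10 counts in 4 libraries and with DESeq2's Wald test, 55 with a replicate block, 44 with no filter on low counts, 33 when only the compared groups were fitted and 29 with the set score as covariate. Over 855 refits of these calls, with each library left out included, 587 kept the call, 268 lost it and 0 changed direction. The replicate block ended Mmp11 in BKC 1 against 0.25 (adjusted p = 0.0561) and Adam17 in DDAC against ABD at 0.125 (adjusted p = 0.0511). DESeq2 size factors moved the median change of the set by at most -0.035. Where an alternative ended a call, the cause was not tested. Fits of the compared groups alone or with a library left out hold fewer libraries, and the fit with no filter holds more genes.

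Counts of called members moved by over 1.5 times as follows. With the set score as covariate they were 0 for ADEB18 0.5, BKC 0.25, DDAC 0.125 and DDAC 0.25, 6 for BKC 1 and 1 for DDAC 0.0625 against Control, and 0 for ADEB18 against ABD at 0.5 and DDAC against ABD at 0.125. Over all genes the calls in that fit were 96, 9, 8, 14, 1198, 54, 107 and 8 in the same order, against 829, 37, 263, 439, 1842, 412, 624 and 350 in the main fit. With only the compared groups fitted, member counts were 0 for BKC 0.25, 4 for BKC 0.5 and 4 for BKC 1 against Control, 2 for ADEB18 0.5 against 0.125, 3 for BKC 1 against 0.25, 10 for ADEB18 against ABD at 0.5 and 2 for DDAC against ADEB18 at 0.25. Over all genes the calls were 12, 606, 851, 285, 303, 1437 and 104 in that order. With no filter, member counts were 4 for ADEB18 0.5 against Control and 1 for DDAC against ADEB18 at 0.25, where the replicate block gave 2. Over all genes these fits gave 592, 220 and 299 calls. DESeq2 gave 3 for ADEB18 0.5 against 0.125 (2 with its size factors alone), 3 for DDAC against ADEB18 at 0.25, and 1 each for DDAC against ABD and BKC against ABD at 0.25 and DDAC against ADEB18 at 0.125. Over all genes it called 592 (406 with its size factors alone), 509, 503, 162 and 449 in that order.

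Leaving out a library gave 1 to 6 calls for ADEB18 0.5, 0 to 1 for BKC 0.25, 2 to 14 for BKC 0.5, 5 to 13 for BKC 1, 1 to 3 for DDAC 0.0625, 1 to 3 for DDAC 0.125 and 0 to 4 for DDAC 0.25 against Control. Over all genes the same refits gave 293 to 831, 7 to 38, 467 to 2114, 1090 to 1867, 137 to 417, 51 to 230 and 84 to 359 calls in that order, so the swings were not particular to this set. Among members, leaving out a library gave 0 to 3 for ADEB18 0.5 against 0.125, 2 to 9 for BKC 1 against 0.25, 1 to 10 for BKC and 1 to 4 for ADEB18 against ABD at 0.5, 0 to 3 for DDAC against ADEB18 and 0 to 2 against ABD at 0.25, and 0 to 3 and 0 to 2 at 0.125. Over all genes these were 158 to 418, 131 to 953, 412 to 1757, 180 to 610, 4 to 587, 8 to 938, 3 to 574 and 75 to 398 calls in that order. Depth limits the 8 tested members at 1 CPM or less.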

Other observations

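Pairs of members also varied together within groups. Of 1378 pairs, 10 had a permutation adjusted p under 0.05 for Pearson's r over 52 libraries, and 1e-05 is the smallest p the permutations can give. Adam33 and Timp1 varied in opposite directions (r = -0.79, rho = -0.78, permutation adjusted p = 0.0034 and 0.0046, r = -0.77 without the 2 farthest libraries). Their correlations with the third principal component of the residuals over the 36 libraries outside DDAC and Control were 0.72 and -0.85. Other members also followed it, such as Mmp16 (0.64), Adamts10 (0.57), Mmp24 (-0.59) and Mmp7 (-0.58). Adam28 and Adam8 varied together (r = 0.75, rho = 0.79, permutation adjusted p = 0.0034 and 0.0046, r = 0.76 without the 2 farthest libraries). Adam28 and Adam8 also had correlations of 0.86 and 0.84 with the first principal component of the residuals over the 36 libraries outside DDAC and Control. That component held 22.7% of the variance and was led by the cardiac muscle genes Tnni3 and Casq2 (0.95 each). These pairs were looked at after the values were seen.

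Mmp3, a stromelysin under the count minimum, was at 0 in all 4 Control libraries and at 4.18 CPM in BKC 1 replicate 2, its highest library. It averaged 1.16 CPM in BKC at 1 and was at 0 in 41 of the 52 libraries.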
